A study of Mus musculus with 8 samples.

Results

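The axon guidance ligands and receptors described here are the 68 genes of the deposited table, of 54532 rows, whose symbols belong to the semaphorins, plexins, neuropilins, ephrins, Eph receptors, Slits, Robos, netrins, Unc5 receptors and Dcc. They were chosen by symbol alone and fall into 20 semaphorins, 11 plexins and neuropilins, 8 ephrins, 14 Eph receptors, 7 Slits and Robos, and 8 netrins, Unc5 receptors and Dcc. All 68 passed the filter on low counts. Their messenger RNA was measured in dorsal root ganglia of spinal levels L3 to L5 of C57BL/6 mice. Mice of both groups had received monosodium iodoacetate into a joint, a poison of glycolysis that damages cartilage and serves as a model of osteoarthritis. The MIA_Acu group (4 libraries, numbered 1, 2, 3 and 5) was needled by hand at the point ST36 below the knee each day for 7 days, and the MIA group (4 libraries, numbered 1, 2, 4 and 5) received no acupuncture. Uninjured and sham-needled mice were not analysed here, so the contrast cannot tell needling apart from handling. The series' design text states 3 mice per group, fewer than the 4 libraries per group, and does not tie libraries to mice, so an n of 4 counts libraries and some may share an animal; p-values would then be too small. The age of the mice is not stated in the labels.

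Axon guidance cues are proteins that steer growing axons by attraction or repulsion. Semaphorins signal through plexins, the secreted class with neuropilins as co-receptors; ephrins and Eph receptors signal in both directions between touching cells; Slits bind Robos, and netrins bind Dcc and Unc5 receptors. In the adult many of them stay in use: sensory neurons keep several of the receptors, Schwann cells and other glia make ligands, and endothelium uses plexins, ephrins, Eph receptors and Robo4 to shape vessels. Because whole ganglia were sequenced, fewer cells of a type and less RNA per cell cannot be told apart in any value below.

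Library totals were 32892804 to 40627041 counts. Every pan-neuronal marker was detected. The 10 markers summed to 6361 to 7734 CPM (the CPM unit scales counts to library size) in MIA_Acu and 7321 to 9683 CPM in MIA. These markers show that neurons were present and do not by themselves identify the ganglion or its spinal level. Several libraries stood apart by marker lists of other cells, none of which had a member at 0 in every library. The 10 myelinating Schwann markers summed to 20703 to 39175 CPM in MIA_Acu, lowest in MIA_Acu 3, and to 6861 to 24575 CPM in MIA, lowest in MIA 2 and highest in MIA 4. The 6 bone and cartilage markers summed to 527 CPM in MIA_Acu 3 and to 17.4 to 60.4 CPM in the other MIA_Acu libraries, against 16.6 to 41.4 CPM in MIA. The 8 markers of spinal cord glia summed to 429 and 384 CPM in MIA_Acu 5 and MIA_Acu 2, 36.8 and 71.4 CPM in MIA_Acu 1 and MIA_Acu 3, and 32.3 to 148 CPM in MIA. The columns MIA_Acu 3 and MIA 4 match no sample title by number: the titles left over carry the number 3 in MIA and 4 in MIA_Acu. The 2 columns were used under the group in their names, and whether the groups were exchanged cannot be told from the labels. Results are therefore also given for the 6 libraries numbered 1, 2 and 5, whose titles match, and with the groups of MIA_Acu 3 and MIA 4 exchanged.

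The guidance genes did not move as 1 group. The receptors Plxna2, Plxna4 and Robo2 and the ligands Slit1, Sema4f and Efna5 were lower in each MIA_Acu library than in each MIA library, by log2 fold changes of -0.41 to -0.56. Robo4 and Epha2 were higher in each MIA_Acu library than in each MIA library. With the groups of MIA_Acu 3 and MIA 4 exchanged, the log2 fold changes of these 8 genes kept their sign. They were -0.49 (Plxna2) to -0.22 (Efna5) for the lower genes, 0.19 for Robo4 and 0.66 for Epha2. The exchange makes the groups overlap for any gene separated without it, so the overlap of these 8 genes was fixed in advance. Semaphorins such as Sema3b, Sema5a, Sema6c and Sema4g, with Slit2, Plxnb1 and Ephb6, had higher means in MIA_Acu but overlapped between groups. Each of these was lowest in MIA 2 among the MIA libraries and in MIA_Acu 3 among the MIA_Acu libraries, as the myelin markers were. No member passed the threshold of an adjusted p under 0.05 in all 8 libraries with edgeR's quasi-likelihood test (0 of 68, where 0% of 18971 genes passed). In the 6 matched libraries 18 of the 68 passed (26.5%, background 10.4%): 12 rose (17.6%, background 6.22%) and 6 fell (8.82%, background 4.14%).

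In the 8 libraries, 18 members (26.5%) had an unadjusted p under 0.05, where the background was 21.8%. Of these, 9 were higher (13.2%, background 11.2%) and 9 lower (13.2%, background 10.6%), both shares near the background. The groups did not overlap for 8 members that were lower (11.8%, background 5.91%) and 2 that were higher (2.94%, background 4.95%). With the exchange 1 member was separated and lower, Sema4d (1.47%, background 2.64%), and 12 were separated and higher (17.6%, background 7.77%). By construction none of the 10 separated without the exchange could be among them. The median log2 fold change of the 68 was 0.18, with 42 above 0 (61.8%), beside a median of 0.018 and 52.9% above 0 over all genes tested. The members' median was 0.10 without MIA_Acu 5, 0.11 without MIA_Acu 3 and 0.097 with the exchange. On the same 8 libraries DESeq2 called 10 members, 3 higher (background 5.94%) and 7 lower (background 6.44%), together 16.9% of the 59 to which it gave an adjusted p (background 12.4%), limma voom 0 and voom with sample weights 15 (background 11.9%). Without MIA 4 alone 14 members passed (background 6.97%), of which 12 were among the 18 of the 6 libraries and 2, Robo1 and Ephb4, were not. The other 6 of the 18, Sema3b, Sema4c, Sema5a, Slit2, Plxnb1 and Ephb6, did not pass without MIA 4 alone. Without any other single library 0 passed.

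**Figure D1:**
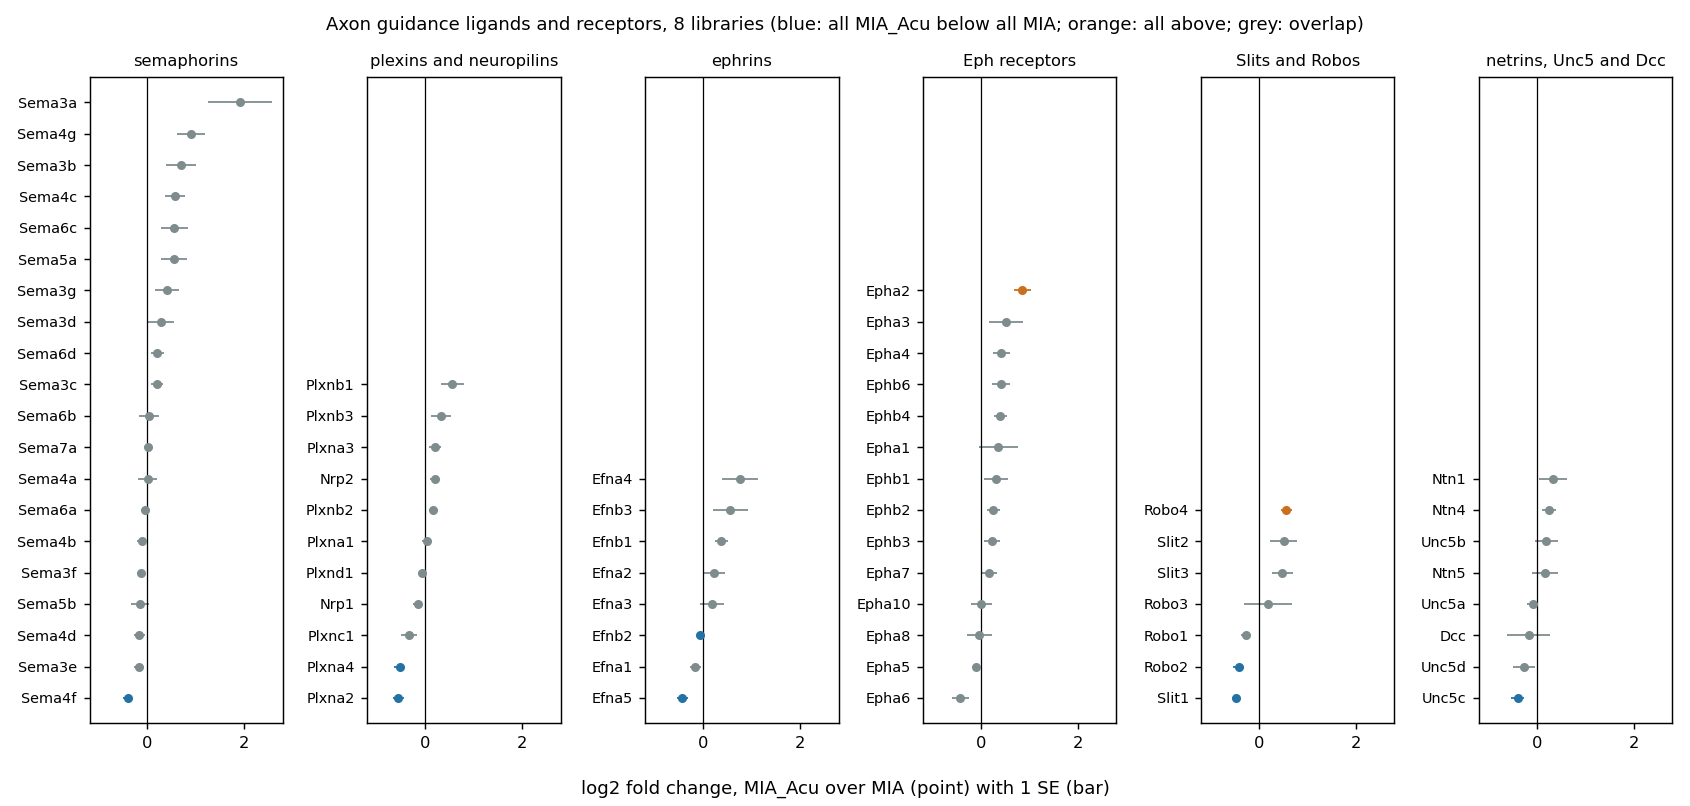
Log2 fold change of MIA_Acu over MIA (x axis) with 1 SE for each of the 68 members, by family, from the fit of 8 libraries. Blue marks the 8 members that were lower in all MIA_Acu libraries than in all MIA libraries, orange the 2 that were higher in all, and grey those whose groups overlapped; no member passed the adjusted threshold.

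Promoter sequence is shown for the members with the smallest p on either side, whose base composition just upstream of the start differs. Of the 3 lower members with the smallest p, Slit1, Plxna2 and Plxna4, the RefSeq table at hand (build GRCm38.p6) lists Plxna2. It lists both of the 2 higher ones, Robo4 and Epha2. The 250 bases before the annotated start are printed, with capitals for exact matches on either strand to 5 motifs, GGGCGG (GC box), CCGGAA (an ETS core), CACGTG (an E-box), TATAAA and TGACGTCA (the cyclic AMP response element).
Plxna2, chr1:194619579-194619828, plus strand: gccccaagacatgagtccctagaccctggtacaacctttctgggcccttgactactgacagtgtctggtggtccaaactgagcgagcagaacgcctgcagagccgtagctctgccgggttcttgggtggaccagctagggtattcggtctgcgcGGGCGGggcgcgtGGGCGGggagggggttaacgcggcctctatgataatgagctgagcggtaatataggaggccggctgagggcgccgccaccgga
Robo4, chr9:37401722-37401971, plus strand: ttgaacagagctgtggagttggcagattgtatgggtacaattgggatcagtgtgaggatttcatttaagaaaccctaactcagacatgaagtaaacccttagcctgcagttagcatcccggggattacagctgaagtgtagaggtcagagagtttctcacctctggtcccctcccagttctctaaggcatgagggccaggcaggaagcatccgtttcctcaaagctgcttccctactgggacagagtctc
Epha2, chr4:141300971-141301220, plus strand: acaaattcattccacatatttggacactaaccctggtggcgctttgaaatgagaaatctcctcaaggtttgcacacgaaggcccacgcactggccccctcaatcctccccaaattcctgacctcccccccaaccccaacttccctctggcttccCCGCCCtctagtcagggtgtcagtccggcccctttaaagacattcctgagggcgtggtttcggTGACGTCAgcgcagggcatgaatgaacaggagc

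Plxna2's stretch held 18 CpG dinucleotides, a GC content of 62.8% and 2 GC boxes. That of Robo4 held 2 CpG dinucleotides, a GC content of 49.6% and none of the 5 motifs, and that of Epha2 held 9 CpG dinucleotides, a GC content of 55.6%, 1 GC box and 1 TGACGTCA. Of the members, 58 had 74 listed starts, of which 70.3% held a GC box, beside 32.7% of all 32851 starts. TATAAA was in 2.7% of the members' starts and 12.4% of all, CCGGAA in 9.46% and 12.03%, CACGTG in 5.41% and 6.02%, and TGACGTCA in 1.35% and 1.55%. A match describes these letters and was not tested for use.

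Among the plexins, the signalling receptors of semaphorins, the pair Plxna2 and Plxna4 was lower. Plxna2 (ENSMUSG00000026640), a receptor of transmembrane and secreted semaphorins, was at 109, 99.3, 139.5 and 114 CPM in the MIA_Acu libraries, against 169.5, 191, 152 and 169 CPM in the MIA libraries. The highest MIA_Acu value, in MIA_Acu 3, lay below the lowest MIA value, in MIA 4 (log2 fold change -0.56, SE 0.11, adjusted p = 0.0880). Plxna4 (ENSMUSG00000029765), through which Sema3a repels sensory axons in the mouse embryo, was at 85.5, 65.9, 95.1 and 92.4 CPM in the MIA_Acu libraries, against 120.1, 127, 115 and 129.5 CPM in the MIA libraries. These groups did not overlap either, and MIA_Acu 2 was the lowest library (log2 fold change -0.54, SE 0.11, adjusted p = 0.0880). Both fell in the 6 libraries (Plxna2 log2 fold change -0.72, adjusted p = 0.0185; Plxna4 log2 fold change -0.63, adjusted p = 0.0209).

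Plxnc1 (ENSMUSG00000074785), the plexin that binds Sema7a, had the highest level per length of its family at 41.6 CPM per kb of transcript over the 8 libraries. It was at 354, 241, 248 and 229.8 CPM in the MIA_Acu libraries, against 393, 385, 264 and 314 CPM in the MIA libraries. MIA_Acu 1 lay inside the MIA range and the other 3 MIA_Acu libraries below it (log2 fold change -0.34, SE 0.17, adjusted p = 0.269). Plxnd1 (ENSMUSG00000030123), the Sema3e receptor of endothelium, was next in level at 22.7 CPM per kb, with 152 ± 7.67 CPM in MIA_Acu and 161 ± 11.9 CPM in MIA (SD, n = 4; adjusted p = 0.551). Of the other direction, Plxnb1 (ENSMUSG00000053646), a receptor of Sema4d, was at 85.6, 116, 72.02 and 118 CPM in the MIA_Acu libraries, against 64.7, 41.4, 94.5 and 65.95 CPM in the MIA libraries. MIA 4 lay above MIA_Acu 1 and MIA_Acu 3, and MIA 2 was far the lowest (log2 fold change 0.56, SE 0.24, adjusted p = 0.214). Without MIA 4 and MIA_Acu 3, Plxnb1 rose (log2 fold change 0.89, adjusted p = 0.0280).

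The neuropilins, co-receptors of secreted semaphorins, did not pass the test in either set. Nrp1 (ENSMUSG00000025810), which binds Sema3a and vascular endothelial growth factor, had 41.8 ± 4.76 CPM in MIA_Acu and 46.7 ± 3.26 CPM in MIA (SD, n = 4; log2 fold change -0.16, adjusted p = 0.336). Nrp2 (ENSMUSG00000025969), the co-receptor of Sema3f, had 106 ± 5.59 CPM in MIA_Acu and 93.2 ± 13.3 CPM in MIA (log2 fold change 0.19, adjusted p = 0.307). Their log2 fold changes thus had opposite signs, and the groups overlapped for both. The remaining plexins, Plxna1, Plxna3, Plxnb2 and Plxnb3, had log2 fold changes of 0.023 to 0.32, none past the threshold.

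**Figure D2:**
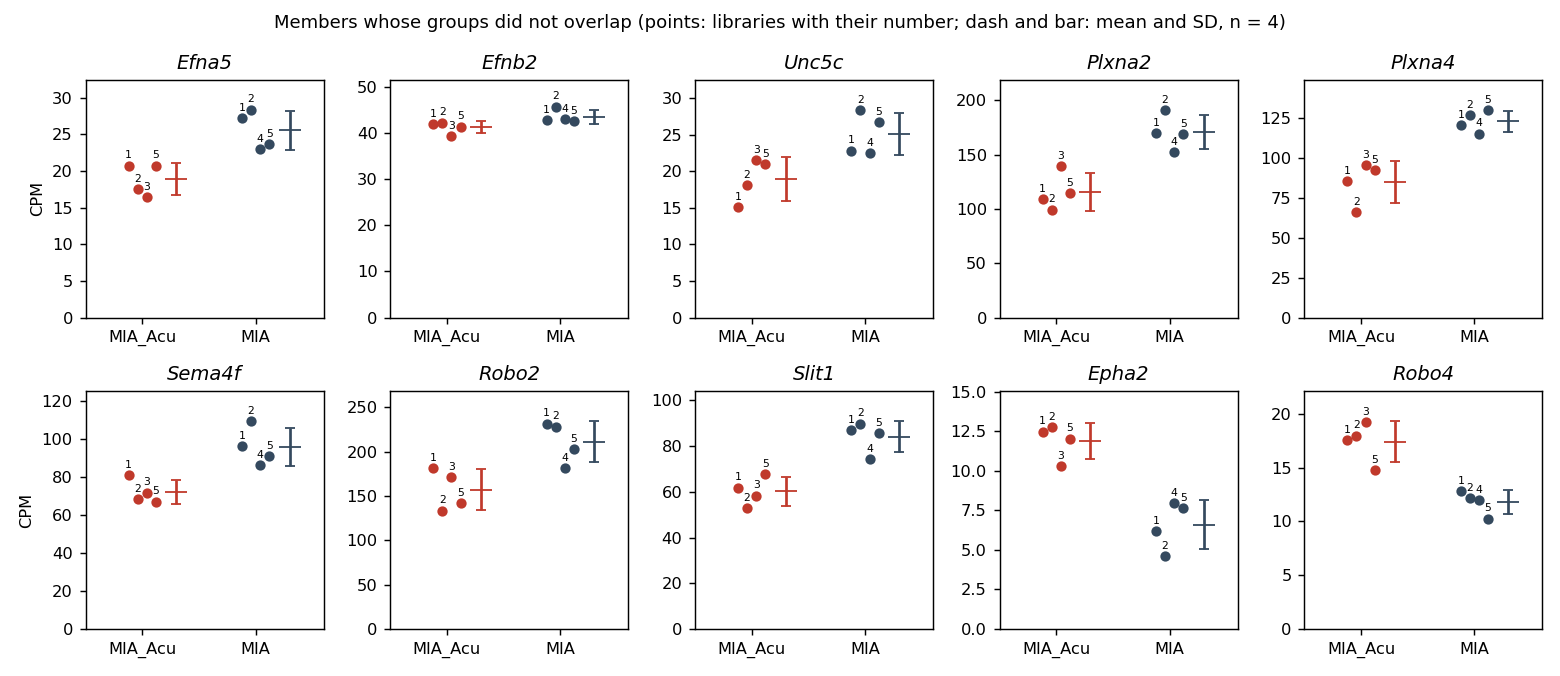
CPM (y axis) of the 10 members whose groups did not overlap, with MIA_Acu left of MIA; points are libraries with their numbers, and dash and bar give the mean and SD of 4. The 8 lower members come first and end with Slit1; Efnb2 is separated by little, with 39.4 to 42.3 CPM in MIA_Acu and 42.6 to 45.8 CPM in MIA.

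Of the 20 semaphorins, 13 had a log2 fold change above 0 and 7 below, with a median of 0.12. In the 6 libraries 5 rose (background 6.22%) and 1 fell (background 4.14%). Sema4f (ENSMUSG00000000627), a transmembrane semaphorin, was the one that fell. It was at 80.7, 68.1, 71.7 and 66.9 CPM in the MIA_Acu libraries, against 96.1, 109, 86.1 and 90.8 CPM in the MIA libraries. All MIA_Acu values lay below the lowest MIA value, that of MIA 4 (log2 fold change -0.41, SE 0.090, adjusted p = 0.0880; in the 6 libraries log2 fold change -0.47, adjusted p = 0.0276).

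Sema3b (ENSMUSG00000057969), a secreted semaphorin, had the highest level per length of all 68 members, 116 CPM per kb, followed at a 2.8-fold lower level by Plxnc1. It was at 532, 517, 307 and 604 CPM in the MIA_Acu libraries, against 268, 154, 471 and 318 CPM in the MIA libraries. MIA_Acu 3 lay below MIA 4 and MIA 5, and MIA 2 was the lowest of all (log2 fold change 0.69, SE 0.31, adjusted p = 0.230). In the 6 libraries Sema3b rose (log2 fold change 1.15, adjusted p = 0.0233). The same held for Sema4g, a transmembrane semaphorin, at 51.8, 68.1, 40.6 and 72.1 CPM in the MIA_Acu libraries, against 24.5, 17.4, 47.7 and 34.4 CPM in the MIA libraries. Here MIA 4 lay above MIA_Acu 3 alone (log2 fold change 0.91, SE 0.29, adjusted p = 0.139; in the 6 libraries log2 fold change 1.33, adjusted p = 0.0196). Sema4c, a ligand of Plxnb2, was at 96.1, 159, 99.4 and 132 CPM in the MIA_Acu libraries, against 84.3, 60.7, 108 and 74.6 CPM in the MIA libraries. MIA 4 was above MIA_Acu 1 and MIA_Acu 3 and the other 3 MIA libraries below every MIA_Acu library (log2 fold change 0.57, SE 0.20, adjusted p = 0.156; in the 6 libraries log2 fold change 0.81, adjusted p = 0.0327).

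The transmembrane semaphorins Sema5a and Sema6c also rose in the 6 libraries, with log2 fold changes of 0.94 and 0.97 (adjusted p = 0.0271 and 0.0234), against 0.56 and 0.56 in 8 (adjusted p = 0.256 and 0.257). Sema6d, a ligand of Plxna1, was the semaphorin second in level at 31.9 CPM per kb and had 220.4 ± 27.9 CPM in MIA_Acu and 191 ± 30.3 CPM in MIA (SD, n = 4; adjusted p = 0.370). Sema7a, the membrane-anchored partner of Plxnc1, had nearly its level at 29.7 CPM per kb and a log2 fold change of 0.014 (SE 0.084). Sema3f, which repels axons that carry Nrp2, had 22.9 ± 1.73 CPM in MIA_Acu and 24.9 ± 1.56 CPM in MIA (adjusted p = 0.413). The remaining semaphorins, Sema3c, Sema3d, Sema3e, Sema3g, Sema4a, Sema4b, Sema4d, Sema5b, Sema6a and Sema6b, had log2 fold changes of -0.17 (Sema3e) to 0.41 (Sema3g). None of them passed the threshold in 8 or 6 libraries. With the replicate number as a block in the 6 libraries, Sema3g (adjusted p = 0.0281) and Sema4d (adjusted p = 0.0493) passed. With that block Sema4c did not pass (adjusted p = 0.0621).

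Sema3a (ENSMUSG00000028883), the repellent of nociceptive axons during development, was near the lower end of detection, with 12, 22, 108 and 77 counts in the MIA_Acu libraries, against 22, 10, 9 and 17 counts in the MIA libraries. That is 0.342, 0.615, 2.94 and 2.11 CPM in the MIA_Acu libraries, against 0.669, 0.261, 0.237 and 0.418 CPM in the MIA libraries. MIA_Acu 3 and MIA_Acu 5 were high, whereas MIA_Acu 1 and MIA_Acu 2 lay within the MIA range (log2 fold change 1.92, SE 0.67, adjusted p = 0.153). MIA_Acu 3 and MIA_Acu 5 are the MIA_Acu libraries with the highest sums of bone and cartilage markers (527 and 60.4 CPM) and of skeletal muscle markers (4681 and 3611 CPM, against 30.5 to 3084 CPM in MIA), and the part of such tissue was not tested. With the groups of MIA_Acu 3 and MIA 4 exchanged, the log2 fold change of Sema3a was -0.37.

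Of the 8 ephrins, the ligands that stay tied to the cell surface, Efna5 and Efnb1 parted ways. Efna5 (ENSMUSG00000048915), a lipid-anchored ephrin that repels axons, was at 20.8, 17.6, 16.5 and 20.7 CPM in the MIA_Acu libraries, against 27.2, 28.4, 23.01 and 23.6 CPM in the MIA libraries. The groups did not overlap (log2 fold change -0.44, SE 0.11, adjusted p = 0.0982), and Efna5 fell in the 6 libraries (log2 fold change -0.43, adjusted p = 0.0448). Efnb1 (ENSMUSG00000031217), a transmembrane ephrin, was at 41.5, 43.1, 34.1 and 37.3 CPM in the MIA_Acu libraries, against 31.2, 25.1, 37.5 and 26.6 CPM in the MIA libraries. MIA 4 alone of the MIA libraries reached the MIA_Acu range (log2 fold change 0.37, SE 0.13, adjusted p = 0.157), and in the 6 libraries Efnb1 rose (log2 fold change 0.55, adjusted p = 0.0209).

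Efnb2 (ENSMUSG00000001300), the ephrin of arterial endothelium, was at 42.1, 42.3, 39.4 and 41.4 CPM in the MIA_Acu libraries, against 42.8, 45.8, 43.05 and 42.6 CPM in the MIA libraries. The groups did not overlap, yet the log2 fold change was only -0.076 (SE 0.059, adjusted p = 0.479). Efna1, at 12.5 CPM per kb the highest ephrin per length, had 19.3 ± 2.404 CPM in MIA_Acu and 21.6 ± 2.49 CPM in MIA (SD, n = 4; adjusted p = 0.437), and Efnb1 was next at 10.6 CPM per kb. Efnb3, a ligand of myelin and midline glia in the mouse, was at 2.82, 6.65, 3.97 and 9.303 CPM in the MIA_Acu libraries, against 3.102, 3.47, 5.69 and 3.24 CPM in the MIA libraries. It was highest in MIA_Acu 5 and MIA_Acu 2, the libraries with the highest spinal cord glia sums, and in MIA 4, that of the MIA libraries with the highest such sum (log2 fold change 0.55, SE 0.36, adjusted p = 0.402); without MIA_Acu 5 the log2 fold change was 0.21, and the part of spinal cord was not tested. Efna4, at 23, 13, 20 and 14 counts in MIA_Acu against 7, 16, 9 and 11 counts in MIA, had a log2 fold change of 0.76 (adjusted p = 0.261). Efna2 and Efna3 lay at 0.21 and 0.18.

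Among the 14 Eph receptors, tyrosine kinases activated by ephrins, 10 had a log2 fold change above 0, with a median of 0.28. In the 6 libraries 3 rose (background 6.22%). Epha2 (ENSMUSG00000006445), which endothelium and epithelia carry, was at 12.5, 12.8, 10.3 and 12.04 CPM in the MIA_Acu libraries, against 6.205, 4.59, 7.96 and 7.64 CPM in the MIA libraries. Every MIA_Acu library lay above every MIA library (log2 fold change 0.85, SE 0.18, adjusted p = 0.0880; in the 6 libraries log2 fold change 1.01, adjusted p = 0.0201). Ephb6 (ENSMUSG00000029869), a receptor without kinase activity, had the highest level of the family at 16.9 CPM per kb. It was at 78.8, 82.8, 46.2 and 82.7 CPM in the MIA_Acu libraries, against 52.4, 45.6, 68.99 and 51.6 CPM in the MIA libraries. MIA_Acu 3 was below every library but MIA 2, and MIA 4 the highest of MIA (log2 fold change 0.41, SE 0.19, adjusted p = 0.243; in the 6 libraries log2 fold change 0.70, adjusted p = 0.0185).

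Epha4 (ENSMUSG00000026235), a receptor of both ephrin classes, was at 11.3, 11.3, 11.2 and 15.05 CPM in the MIA_Acu libraries, against 8.09, 7.79, 12.3 and 8.45 CPM in the MIA libraries. Only MIA 4 of the MIA libraries reached the MIA_Acu range (log2 fold change 0.41, SE 0.17, adjusted p = 0.204; in the 6 libraries log2 fold change 0.62, adjusted p = 0.0363). Ephb4 (ENSMUSG00000029710), the venous partner of Efnb2, was at 17.05, 21.1, 18.5 and 19.5 CPM in the MIA_Acu libraries, against 15.03, 11.4, 17.8 and 13.98 CPM in the MIA libraries. Again MIA 4 alone overlapped with MIA_Acu (log2 fold change 0.39, SE 0.14, adjusted p = 0.155), and in the 6 libraries Ephb4 did not pass (adjusted p = 0.0522). Epha6 (ENSMUSG00000055540) went the other way at 8.44, 7.54, 10.6 and 13.5 CPM in the MIA_Acu libraries, against 11.6, 13.5, 15.8 and 13.2 CPM in the MIA libraries. MIA_Acu 5 lay within the MIA range and the other 3 below it (log2 fold change -0.44, SE 0.18, adjusted p = 0.205; in the 6 libraries adjusted p = 0.284). The other 9 receptors of the family had log2 fold changes of -0.10 (Epha5) to 0.51 (Epha3), none past the threshold in 8 or 6 libraries.

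Slits and Robos, which push axons from the midline and make sensory axons branch in the mouse spinal cord, had 3 of 7 members whose groups did not overlap, 2 lower (background 5.91%) and 1 higher (background 4.95%). Slit1 (ENSMUSG00000025020), a secreted ligand made by neurons, was at 61.8, 52.7, 58.4 and 67.8 CPM in the MIA_Acu libraries, against 86.9, 89.8, 74.2 and 85.7 CPM in the MIA libraries. The MIA_Acu range ended below the lowest MIA library, MIA 4 (log2 fold change -0.48, SE 0.090, adjusted p = 0.0880; in the 6 libraries log2 fold change -0.53, adjusted p = 0.0200). Robo2 (ENSMUSG00000052516), a receptor of Slits and the highest of these 7 genes per length (21.4 CPM per kb), was at 182, 133, 171 and 142 CPM in the MIA_Acu libraries, against 232, 228, 182 and 203 CPM in the MIA libraries. MIA_Acu 1 and MIA 4 were nearly equal, with MIA 4 just above, so the groups did not overlap (log2 fold change -0.43, SE 0.12, adjusted p = 0.111; in the 6 libraries log2 fold change -0.54, adjusted p = 0.0295). Robo1 (ENSMUSG00000022883), its close relative, was at 15.6, 15.4, 16.7 and 17.6 CPM in the MIA_Acu libraries, against 20.2, 20.96, 17.2 and 21.1 CPM in the MIA libraries. MIA 4 lay inside the MIA_Acu range (log2 fold change -0.28, SE 0.093, adjusted p = 0.141), and Robo1 did not pass in the 6 libraries (adjusted p = 0.0515).

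Robo4 (ENSMUSG00000032125), the Robo of endothelium, was at 17.6, 17.99, 19.3 and 14.8 CPM in the MIA_Acu libraries, against 12.8, 12.2, 11.99 and 10.3 CPM in the MIA libraries. All MIA_Acu libraries were higher (log2 fold change 0.56, SE 0.11, adjusted p = 0.0880; in the 6 libraries log2 fold change 0.51, adjusted p = 0.0463). Slit2 (ENSMUSG00000031558), a ligand that glia and mesenchyme also make, was at 129, 131, 92.4 and 171 CPM in the MIA_Acu libraries, against 81.4, 49.8, 142 and 95.8 CPM in the MIA libraries. MIA 4 was second highest of all and MIA 2 the lowest, and MIA_Acu 3 lay among the MIA values (log2 fold change 0.50, SE 0.29, adjusted p = 0.331). Its log2 fold change was 0.30 without MIA 2 and 0.79 without MIA 4, and Slit2 rose in the 6 libraries (log2 fold change 0.92, adjusted p = 0.0380). Slit3 had a log2 fold change of 0.47 (adjusted p = 0.241) and Robo3, at 0.255 ± 0.101 CPM in MIA_Acu and 0.224 ± 0.112 CPM in MIA, the lowest level of the 68 per length.

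The netrin group gave no call in 8 or 6 libraries with edgeR, whereas Unc5c passed in the 6 libraries with the replicate number as a block (adjusted p = 0.0374) and in the 8 with DESeq2 (adjusted p = 0.0464). Unc5c (ENSMUSG00000059921), which turns netrin into a repellent, was at 15.1, 18.1, 21.5 and 21.01 CPM in the MIA_Acu libraries, against 22.8, 28.4, 22.5 and 26.7 CPM in the MIA libraries. The groups did not overlap, with MIA_Acu 3 and MIA 4 nearest to each other (log2 fold change -0.41, SE 0.13, adjusted p = 0.135; in the 6 libraries log2 fold change -0.53, adjusted p = 0.0513). Ntn1 (ENSMUSG00000020902), the founding netrin, was at 15.9, 13.3, 17.3 and 12.6 CPM in the MIA_Acu libraries, against 12.99, 5.396, 17.6 and 11.3 CPM in the MIA libraries. MIA 4 was the highest of all and MIA 2 the lowest (log2 fold change 0.32, SE 0.29, adjusted p = 0.552), and the log2 fold change was 0.082 without MIA 2 and 0.58 without MIA 4. Ntn4, a netrin of basement membranes and the highest of the group per length (2.89 CPM per kb), had 11.4 ± 1.602 CPM in MIA_Acu and 9.62 ± 1.49 CPM in MIA (SD, n = 4; adjusted p = 0.351).

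Unc5b (ENSMUSG00000020099), a netrin receptor of endothelium, was at 10.6, 14.2, 24.1 and 11.4 CPM in the MIA_Acu libraries, against 13.5, 14.2, 12.7 and 12.7 CPM in the MIA libraries. MIA_Acu 3, whose bone and cartilage sum was the highest, was high and the other 3 MIA_Acu libraries averaged no more than the MIA libraries (log2 fold change 0.19, SE 0.23, adjusted p = 0.676); without it the log2 fold change was -0.14. Dcc (ENSMUSG00000060534), the attractive netrin receptor, was barely present at 0.257, 1.06, 0.870 and 1.04 CPM in the MIA_Acu libraries, against 0.487, 1.15, 1.11 and 0.909 CPM in the MIA libraries. These are 9 to 38 counts per MIA_Acu library and 16 to 44 per MIA library, which left an SE of 0.45 around a log2 fold change of -0.18 (adjusted p = 0.851). Unc5d had a log2 fold change of -0.28 (-0.055 without MIA 1), Unc5a of -0.097 and Ntn5 of 0.17.

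**Figure D3:**
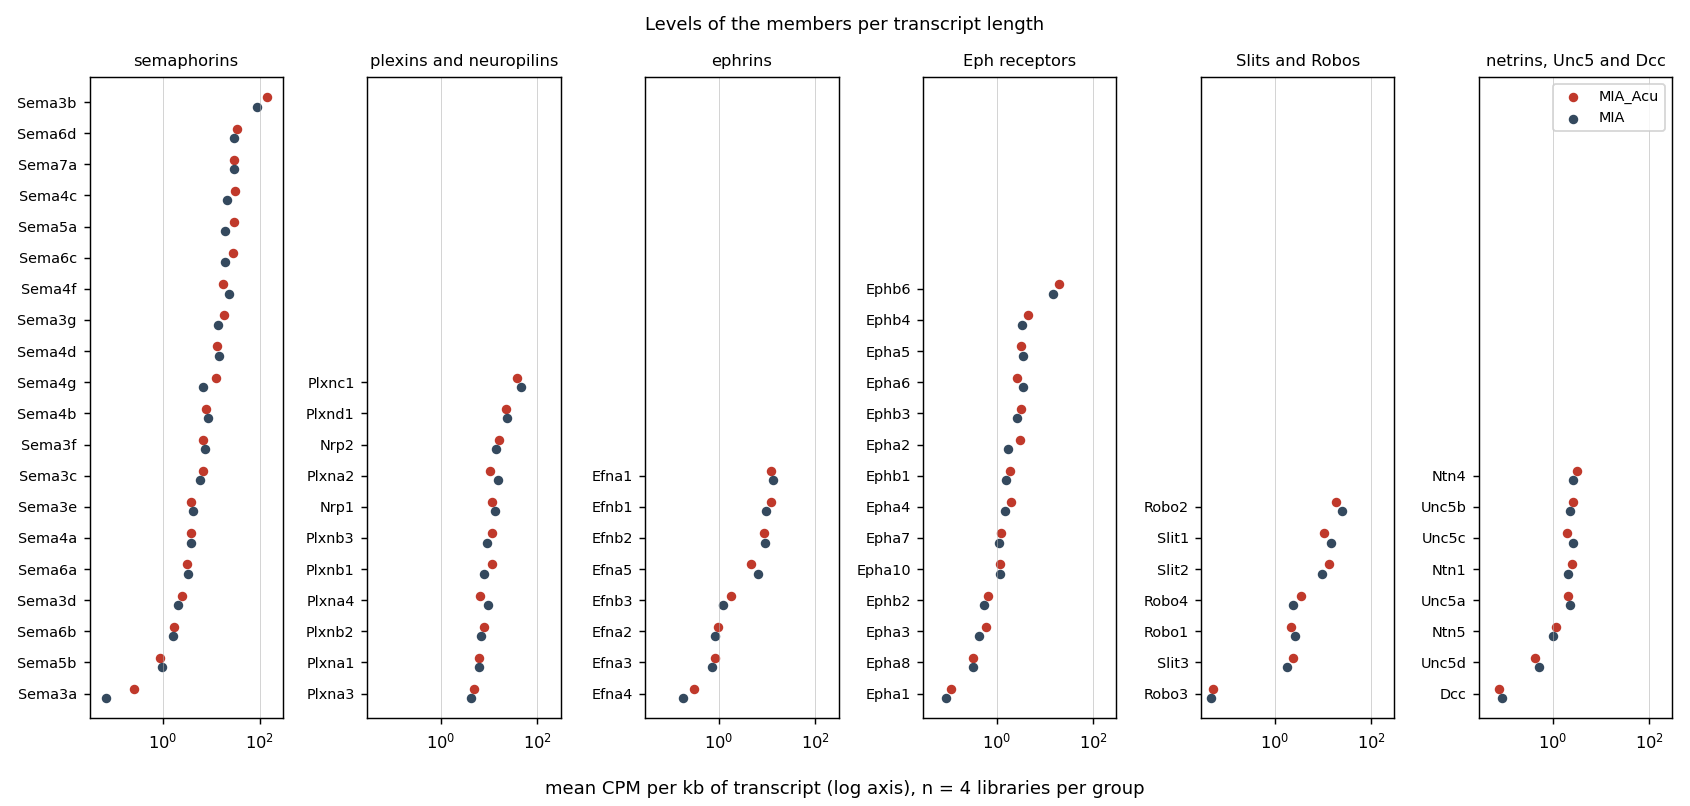
Mean CPM per kb of transcript (x axis, log scale) of each member in MIA_Acu and MIA (n = 4 libraries each), by family, highest at the top. Levels span 0.05 CPM per kb for Robo3 to 116 CPM per kb for Sema3b over the 8 libraries, and the groups lie close together for most members.

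Neuronal markers moved with the lower members. The pan-neuronal list (10 of 10 in the table) had a median log2 fold change of -0.34, with all 10 below 0. In the 6 libraries 5 of them fell (background 4.14%). The 8 nociceptor markers were all below 0 (median -0.34). Of 7 markers of large-diameter afferents 5 were below 0 and 2 above (median -0.34). Set against the summed pan-neuronal CPM of the same library, the groups overlapped for all of the 8 separated lower members. Plxna2 was at 14.1, 15.1, 21.4 and 17.9 CPM per 1000 CPM of these markers in the MIA_Acu libraries, against 19.5, 19.7, 20.8 and 19.2 in the MIA libraries. The log2 ratio of the group means was thereby -0.21 for Plxna2 and -0.19 for Plxna4. It was -0.14 for Slit1, -0.090 for Robo2, -0.073 for Sema4f, -0.095 for Efna5, -0.047 for Unc5c and 0.26 for Efnb2. Each was nearer to 0 than the gene's own log2 fold change, except that of Efnb2. The pan-neuronal sum itself averaged 6802 CPM in MIA_Acu and 8619 CPM in MIA, so division by it tends to raise every log2 ratio. Such division therefore shifts lower members toward 0 and makes overlap of their groups likelier, and the part of neuronal RNA was not tested. Among the MIA libraries the pan-neuronal sum was lowest in MIA 4 and highest in MIA 2, an order that 9 of the 68 members shared (13.2%), beside 17.0% of all genes tested; Plxna2, Slit1, Sema4f, Efna5 and Unc5c were among them, and Plxna4, Robo2 and Efnb2 were not.

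Summed markers of endothelium and of several other non-neuronal cells had higher means in MIA_Acu, as Robo4 and Epha2 did. The 6 genes listed as markers of non-myelinating and repair Schwann cells were all below 0 (median log2 fold change -0.34). They ranged from -0.48 for L1cam, counted below among the semaphorin effectors too, to -0.070 for Scn7a (SE 0.097). Scn7a was at 0.011 in the 6 libraries. Which cells of the ganglion gave the RNA of these genes was not tested, so the list does not show fewer Schwann cells. Of 7 satellite glia markers 5 were above 0 and 2 below (median 0.14). Among the MIA_Acu libraries Epha2 was lowest in MIA_Acu 3, where the endothelial sum was highest. Of the MIA libraries, Robo4 was highest in MIA 1 and the endothelial sum in MIA 4. The 10 endothelial markers summed to 352 to 464 CPM in MIA_Acu and 247 to 299 CPM in MIA. All 10 of them had a log2 fold change above 0 (median 0.54), and 5 rose in the 6 libraries (background 6.22%). All markers of mural cells (8 of 8, median log2 fold change 0.50), fibroblasts (8 of 8, median 1.01) and macrophages (8 of 8, median 0.52) were above 0 as well, and their part was not tested. Fibroblast sums were 2176 to 5729 CPM in MIA_Acu and 606 to 1839 CPM in MIA, mural sums 449 to 735 CPM in MIA_Acu and 332 to 471 CPM in MIA, and macrophage sums 79.9 to 147 CPM in MIA_Acu and 57.3 to 97.1 CPM in MIA. Per 1000 CPM of the endothelial markers Robo4 was at 45.1, 47.9, 41.5 and 42.0 CPM in the MIA_Acu libraries, against 44.4, 49.4, 40.1 and 37.7 CPM in the MIA libraries. The groups overlapped, with a log2 ratio of the means of 0.041. For Epha2 that ratio was 0.37 and the groups overlapped as well. The endothelial sum itself averaged 396 CPM in MIA_Acu and 277 CPM in MIA, so division by it tends to lower every log2 ratio. Such division therefore shifts higher members toward 0 and makes overlap of their groups likelier, and the part of endothelial RNA was not tested.

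Myelinating Schwann markers moved with the larger set of higher members. All 10 had a log2 fold change above 0 (median 1.08) and all 10 rose in the 6 libraries (background 6.22%). Among the MIA libraries their sum was lowest in MIA 2 and highest in MIA 4, an order that 23 of the 68 members shared (33.8%), beside 18.1% of all genes tested. Of those, 15 were also lowest in MIA_Acu 3 of the MIA_Acu libraries, as the markers were (22.1%, beside 8.28% of all genes): Efnb1, Epha2, Epha4, Ephb1, Ephb6, Plxna1, Plxnb1, Plxnb3, Sema3b, Sema3g, Sema4g, Sema5a, Sema6c, Sema6d and Slit2. This order was looked for after the values were seen, and the part of Schwann cell RNA in it was not tested.

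Several of these members differed less between groups than the myelin markers did. Per 1000 CPM of the markers, Sema3b was at 14.8, 13.9, 14.8 and 15.4 CPM in the MIA_Acu libraries, against 18.9, 22.5, 19.2 and 20.4 CPM in the MIA libraries. The ratio was thus lower in each MIA_Acu library, and so it was for Slit2, Sema5a, Sema6c, Plxnb1 and Ephb6, with log2 ratios of the means of -0.59 (Sema6c) to -0.91 (Ephb6). For Sema4g the ratio was -0.25 and the groups overlapped. The myelin sum itself averaged 33260 CPM in MIA_Acu and 15314.5 CPM in MIA, so division by it tends to lower every log2 ratio. Plxna4 and Slit1, which were lower in MIA_Acu, also had a lower ratio in each MIA_Acu library (log2 ratios -1.84 and -1.85). A lower ratio is therefore not particular to these members, and the part of Schwann cell RNA was not tested.

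**Figure D4:**
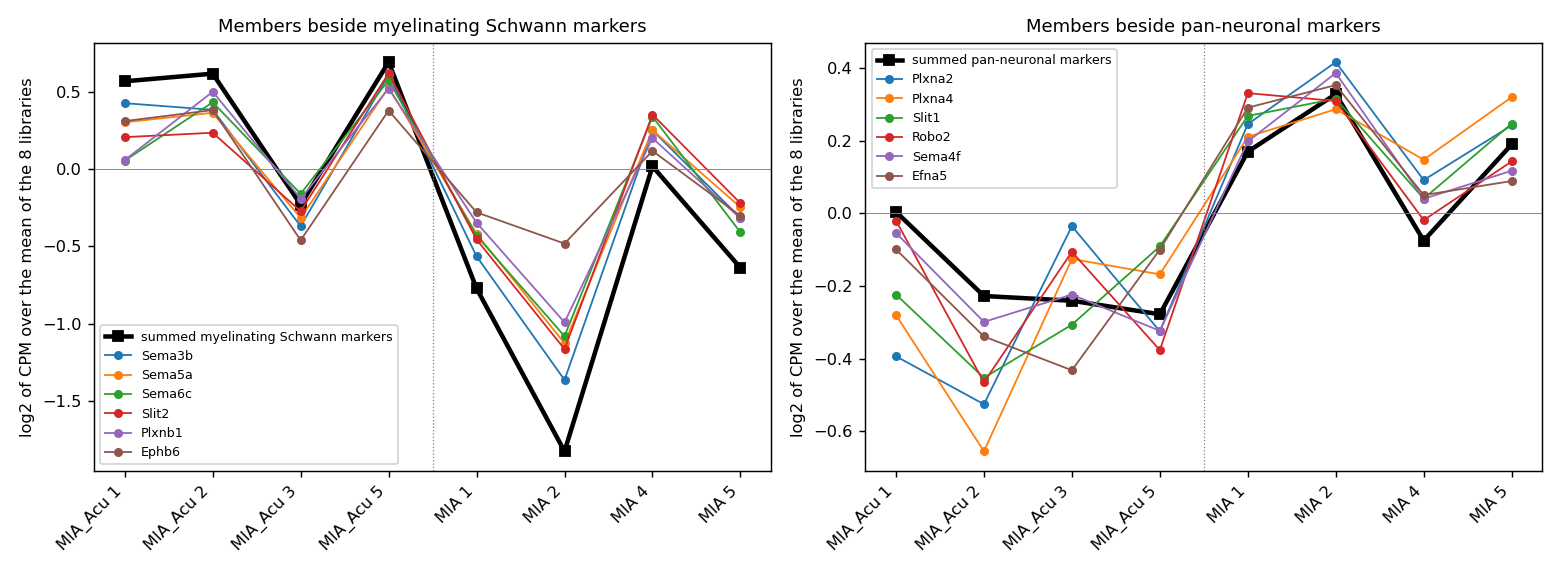
Log2 of CPM over the mean of the 8 libraries (y axis) for 6 members and a summed marker list (thick black line) in each library (x axis), MIA_Acu on the left. In the left panel the members and the myelinating Schwann markers are lowest in MIA 2, and MIA 4 is the highest MIA library; in the right panel the members are higher in each MIA library than in each MIA_Acu library, while the pan-neuronal markers of MIA 4, the lowest MIA library for them, lie below those of MIA_Acu 1.

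Genes that carry guidance signals into the cell gave lists of unequal direction, none with a member past the threshold in 8 libraries. The counts that follow stand beside backgrounds of 11.2% higher and 10.6% lower at an unadjusted p under 0.05 in 8 libraries, and of 6.22% that rose and 4.14% that fell in the 6 libraries. Of 15 effectors of Slit, Robo, netrin and Dcc signalling, 9 were lower and 1 higher at an unadjusted p under 0.05, with a median log2 fold change of -0.22, and in the 6 libraries 7 fell and 1 rose. Srgap1 and Srgap3, intracellular partners of Robo receptors, had log2 fold changes of -0.35 (SE 0.06) and -0.40 (SE 0.08), and both fell in the 6 libraries (adjusted p = 0.0189 and 0.0201). Of 17 semaphorin and plexin effectors, 5 were lower and 0 higher at that p (median -0.032), and in the 6 libraries 5 fell and 2 rose. L1cam, an adhesion protein that joins Nrp1 in the Sema3a receptor, was at a log2 fold change of -0.48 (SE 0.08), and Dpysl5, of the collapsin response mediator family, at -0.36 (SE 0.08), and both fell in the 6 libraries (adjusted p = 0.0185 for each).

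Of the 12 Eph and ephrin effectors tested, 4 were higher (background 11.2%) and 3 lower (background 10.6%) at an unadjusted p under 0.05 (median 0.17), and in the 6 libraries 4 rose (background 6.22%) and 1 fell (background 4.14%). Tiam1, an activator of Rac, was at a log2 fold change of 0.51 (SE 0.13), and Grip1, a scaffold of B-class ephrins, at -0.43 (SE 0.11), with adjusted p of 0.0247 and 0.0388 in the 6 libraries. Other guidance cues and receptors, 21 genes such as Rgma and the netrin-G proteins, had 9 members lower and 0 higher at that p (median -0.16), and 3 fell in the 6 libraries. Cntn2, an axonal adhesion protein, was at a log2 fold change of -0.44 (SE 0.08), and Ntng1 at -0.36 (SE 0.08). Both fell in the 6 libraries (adjusted p = 0.0185 and 0.0349).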

How the data were processed

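Poly(A) RNA of the ganglia was sequenced from libraries made with the NEBNext Ultra kit, per the labels' protocols. Mouse build GRCm39 (mm39) and the tools FastQC and Trimmomatic are recorded in the submitters' processing notes. Aligner, counter, strand setting and annotation: not given in the sources used here. Reads of overlapping or antisense genes therefore cannot be told apart. The authors deposited raw counts per Ensembl gene for 8 libraries. Each library took its group from its column name, and 6 column numbers match a sample title. The labels do not tie libraries to animals, and state fewer mice per group (3) than there are libraries (4). P-values therefore measure spread among libraries, which may be technical. In each pair of libraries of a group chi-square over degrees of freedom of the counts was 19.7 or more, beyond sampling noise.

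Groups were compared with edgeR 4.0.16 (glmQLFit, glmQLFTest) in R 4.3.3, with filterByExpr (minimum count 10, minimum total 15), TMM and Benjamini-Hochberg adjustment over all genes tested. SE was derived from the F statistic, and CPM uses TMM-scaled totals. Levels per kb divide CPM by the longest coding transcript of GENCODE M21 (GRCm38). DESeq2 1.42.0 and limma 3.58.1 were alternatives.

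The members, lists and tests were chosen with earlier results of these data known. Named were, in each family, the 4 members with the smallest p and the 2 with the highest level per length, and 16 well-known members in any case. Sema5a, Sema6c, Sema7a, Sema3d and Epha3 were added after their values were seen, and the rest are given briefly to account for every member. The summed marker levels and ratios to them carry no test.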

Additional observations from a re-analysis of the deposited data

Results flagged for a closer look

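In 6 of the 72 groups of 4 values examined (36 named members in both groups), 1 library lay apart from the other 3, its gap to the next exceeding the 95% limit of Dixon's test for 4 values. Chance alone flags about 1 in 20 such groups. Epha4 was at 15.05 CPM in MIA_Acu 5, beside 11.2 to 11.3 CPM in the other MIA_Acu libraries, and at 12.3 CPM in MIA 4, beside 7.79 to 8.45 CPM in the other MIA libraries. Ephb6 was at 46.2 CPM in MIA_Acu 3, beside 78.8 to 82.8 CPM in the other MIA_Acu libraries. Plxnc1 was at 354 CPM in MIA_Acu 1, beside 229.8 to 248 CPM in the others of MIA_Acu. Efnb3 was at 5.69 CPM in MIA 4, beside 3.10 to 3.47 CPM in the other MIA libraries. Efnb2 was at 45.8 CPM in MIA 2, beside 42.6 to 43.0 CPM in the other MIA libraries.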

How the results depend on the processing

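The number of genes called was 0 in the 8 libraries, 6 with no filter on low counts, 1963 in the 6 matched libraries, 207 with the groups of MIA_Acu 3 and MIA 4 exchanged, 1753 with DESeq2 and 2249 with weighted voom; leaving out 1 library gave 0 to 1340. Members called, 0 in the 8 libraries, numbered 18 in the 6 libraries, 2 with the exchange (Sema3b and Ephb6, higher), 10 with DESeq2 and 15 with weighted voom, and 0 to 14 with 1 library left out. Members higher at an unadjusted p under 0.05, 9 in the 8 libraries, numbered 14 with no filter, 21 in the 6 libraries, 20 with the exchange and 20 with weighted voom, and 5 (without MIA_Acu 2) to 20 (without MIA 4) with 1 left out. Members separated and higher, 2 in the 8 libraries, numbered 18 in the 6 libraries, 12 with the exchange and 2 to 10 with 1 left out (10 without MIA 4, 8 without MIA_Acu 3). Members separated and lower, 8 in the 8 libraries, numbered 13 in the 6 libraries and 1 with the exchange, and 7 to 10 with 1 left out. Over all genes in the 8 libraries, 4.95% were separated and higher, 5.91% separated and lower, and 11.2% higher at that unadjusted p. With the exchange 7.77% were separated and higher and 2.64% lower. For the other settings no share over all genes stands beside the counts separated or at an unadjusted p. Those counts therefore show no trait particular to the members. Fewer libraries make separation easier by construction. The cause of the other shifts was not tested. DESeq2 size factors, the stricter filter and voom without weights left all of these counts within 1.5 times.

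The replicate number as a block in the 6 libraries gave 1486 of 18941 genes and 21 of 68 members called. Of the genes 1014 rose and 472 fell, and of the members 14 rose and 7 fell. The block added Sema3g, Sema4d, Plxnb3, Slit3 and Unc5c to the members called in the 6 libraries, and Sema4c and Efna5 no longer passed. At an unadjusted p under 0.05, 23 members were higher. As without the block, 18 members were separated and higher and 13 separated and lower. No share over all genes stands beside these counts of separated members or of members at an unadjusted p. They therefore show no trait particular to the members. Same-numbered libraries had correlations of deviations of 0.067, 0.27 and 0.15, not over 0.1 for each pair. Differently numbered libraries had -0.25 (MIA_Acu 5 with MIA 2) to 0.148 (MIA_Acu 5 with MIA 1), all below 0 but the last. MIA 1 thus correlated better with MIA_Acu 5 than with MIA_Acu 1. Deviations from means of 3 libraries cannot tell whether same-numbered libraries were paired.

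Of the 36 named members, 33 kept the sign of their log2 fold change under each alternative that gave a value. That of Dcc was -0.18, turning to 0.0197 with the exchange and 0.11 with weighted voom, and -0.38 to 0.12 with 1 library left out. That of Unc5b was 0.19, turning to -0.16 in the 6 libraries, -0.17 with the block and -0.40 with the exchange, and -0.14 to 0.34 with 1 left out. That of Sema3a was 1.92, turning to -0.37 with the exchange. Among the others, leaving out 1 library moved small log2 fold changes by over 1.5 times: Efna1 from -0.17 to -0.11 (without MIA_Acu 5) and -0.10 (without MIA 2), Nrp1 from -0.16 to -0.094 (without MIA_Acu 2), Sema3f from -0.12 to -0.071 (without MIA_Acu 1), Plxnd1 from -0.080 to -0.049 (without MIA_Acu 5), -0.053 (without MIA 2) and -0.13 (without MIA 4), and, without MIA 2, Sema3f to -0.082, Nrp2 from 0.19 to 0.097, Ntn4 from 0.25 to 0.16 and Sema6d from 0.21 to 0.13. Larger log2 fold changes moved that far as well. That of Efnb3 went from 0.55 to 0.21 without MIA_Acu 5, and that of Unc5d from -0.28 to -0.055 without MIA 1. That of Ntn1 went from 0.32 to 0.082 without MIA 2 and 0.58 without MIA 4. That of Slit2 went from 0.50 to 0.30 without MIA 2 and 0.79 without MIA 4. Low counts of Dcc, Robo3, Epha1, Efna4 and Sema3a limit what depth can show for these 5 genes.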

Other observations

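Some members were high in MIA_Acu 3 alone. Sema3d, a secreted semaphorin, was at 14.02, 10.7, 26.9 and 11.6 CPM in the MIA_Acu libraries, against 14.9, 13.1, 13.5 and 10.7 CPM in the MIA libraries. Epha3, a receptor of A-class ephrins, was at 3.28, 2.63, 5.93 and 1.64 CPM in the MIA_Acu libraries, against 2.099, 1.82, 2.48 and 3.05 CPM in the MIA libraries. Both were chosen after their values were seen, and MIA_Acu 3 is the library with the highest fibroblast sum (5729 CPM, against 2176 to 2934 CPM in the other MIA_Acu libraries and 606 to 1839 CPM in MIA), a part that was not tested. Among 11 cytoskeletal switches shared by the guidance pathways, the median log2 fold change was 0.11. At an unadjusted p under 0.05, 2 were higher (background 11.2%) and 3 lower (background 10.6%). In the 6 libraries 1 rose (background 6.22%) and 1 fell (background 4.14%). Limk1, a kinase of cofilin, was the one that fell (log2 fold change -0.36, adjusted p = 0.0241).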
